A study of Mus musculus with 26 samples.

Results

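The genes of oxidative phosphorylation were followed in retinas and sorted rods of rd10 mice given inhibitors of chromatin enzymes. Members were taken by name alone: the deposited Ensembl identifiers were paired with mouse symbols, and every symbol of the nuclear Nduf, Sdh, Uqcr, Cox4 to Cox8 and Atp5 families was kept together with the mitochondrially encoded mt-Nd, mt-Co, mt-Cytb and mt-Atp genes. This gave 101 of 37991 genes. Of these, 82 encode nuclear subunits or their close paralogs (37 of complex I, 4 of complex II, 8 of complex III, 18 of complex IV and 15 of complex V) and 13 are mitochondrial mRNAs. The remaining 6 matched by name only: Cox4nb, Atp5sl, Atp5s, Atp5l-ps1, Atp5l2 and a second gene model of Ndufb8.

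The rd10 mouse carries a hypomorphic mutation of Pde6b, which encodes a subunit of the rod phosphodiesterase, and loses its rods early in life. Animals of both sexes received intraperitoneal injections from postnatal day 9, and tissue was collected at postnatal day 24. The labels call the injections daily for all treatments, whereas the study's text gives DZNep daily at first and then every other day at a lower dose. Whole rd10 retinas came from 4 experiments, each with its own injected rd10 controls: DZNep, which lowers EZH2 activity (4 control and 2 treated libraries), UNC1999, an EZH2 inhibitor (3 and 3), UNC0642, an inhibitor of the histone methyltransferases EHMT2 and EHMT1 (2 and 2), and Romidepsin, an inhibitor of histone deacetylases (3 and 3). Controls received saline, the diluent of the other drugs. UNC1999 was dissolved in a mix of DMSO, PEG300, Tween-80 and saline. For its controls the study's text gives saline and a figure legend diluent. If they received saline, drug and vehicle cannot be told apart. In the fifth experiment rods were sorted by flow cytometry from homozygous offspring of rd10 crossed with Nrl-EGFP mice, whose transgene marks rods with a green fluorescent protein, after saline or the LSD1 inhibitor GSK2879552 (2 and 2). Every animal, controls included, carried the rd10 mutation, so no library shows the level in a retina that keeps its rods. Poly(A) RNA of 26 libraries was sequenced, and the deposited values are read counts per gene. Retina libraries held 13732959 to 36354094 counts and rod libraries 7289460 to 19864491. The p-values measure the spread between the libraries of a group, which the labels call biological replicates.

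Oxidative phosphorylation passes electrons from NADH and succinate through complexes I to IV to oxygen and uses the proton gradient this builds to make ATP in complex V, the ATP synthase. All subunits of complex II and most subunits of the other complexes are encoded in the nucleus, whereas mitochondrial DNA encodes core subunits of complexes I, III, IV and V, and both sets must be made in proportion. Photoreceptors pack their inner segments with mitochondria to pay for ion pumping in the dark, although they also turn much of their glucose into lactate.

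Much of the mitochondrial genome exists a second time in the nuclear genome of the mouse, and this bears on which mitochondrial mRNAs can be counted. In the NCBIM37 build that the submitters name, positions 6394 to 11042 of the mitochondrial chromosome have a copy on the minus strand of chromosome 1, from 24618374 to 24623023. Of 4650 aligned positions 4648 were identical. There was 1 inserted base and 1 substitution, T9461C (the mitochondrial base first, its position on the mitochondrial chromosome, then the base of the copy). The sequences below show the start of mt-Nd3, where the capital letter marks that substitution, the start of mt-Co3, which the copy repeats letter for letter, and the start of mt-Cytb, which has no copy of this kind.
mt-Nd3 start, chrM:9441-9500, plus strand: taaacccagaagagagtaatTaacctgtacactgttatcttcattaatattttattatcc
Nuclear copy of mt-Nd3 start, chr1:24619917-24619976, minus strand: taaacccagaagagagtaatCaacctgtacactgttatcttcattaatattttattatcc
mt-Co3, chrM:8607-8666, plus strand: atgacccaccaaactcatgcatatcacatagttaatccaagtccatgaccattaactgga
Nuclear copy of mt-Co3, chr1:24620751-24620810, minus strand: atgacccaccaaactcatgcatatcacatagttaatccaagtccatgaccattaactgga
mt-Cytb, chrM:14145-14204, plus strand: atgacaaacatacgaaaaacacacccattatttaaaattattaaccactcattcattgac

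Counted in stretches of 50 bases, 100% of mt-Co2, mt-Atp8, mt-Atp6, mt-Co3 and mt-Nd4l and 99.0% of mt-Nd3 had an exact second place in the genome. For mt-Nd4 this share was 62.2%, for mt-Co1 51.1%, for mt-Nd2 8.29% and for mt-Nd5 7.61%, and mt-Nd1, mt-Nd6 and mt-Cytb had none. The counts followed this division. In control retinas mt-Co1 stood at 4246 CPM (counts scaled to a fixed library total) per kb of gene model, mt-Cytb at 3554, mt-Nd1 at 2659, mt-Nd2 at 1278, mt-Nd5 at 1135 and mt-Nd4 at 1033. By contrast, the wholly or almost wholly copied genes ranged from 0.84 for mt-Atp8 to 54.6 for mt-Co2, with mt-Co3 at 10.1 and mt-Atp6 at 7.81. mt-Nd6, the only mRNA read from the light strand and not copied, stood at 28.1.

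**Figure D1:**
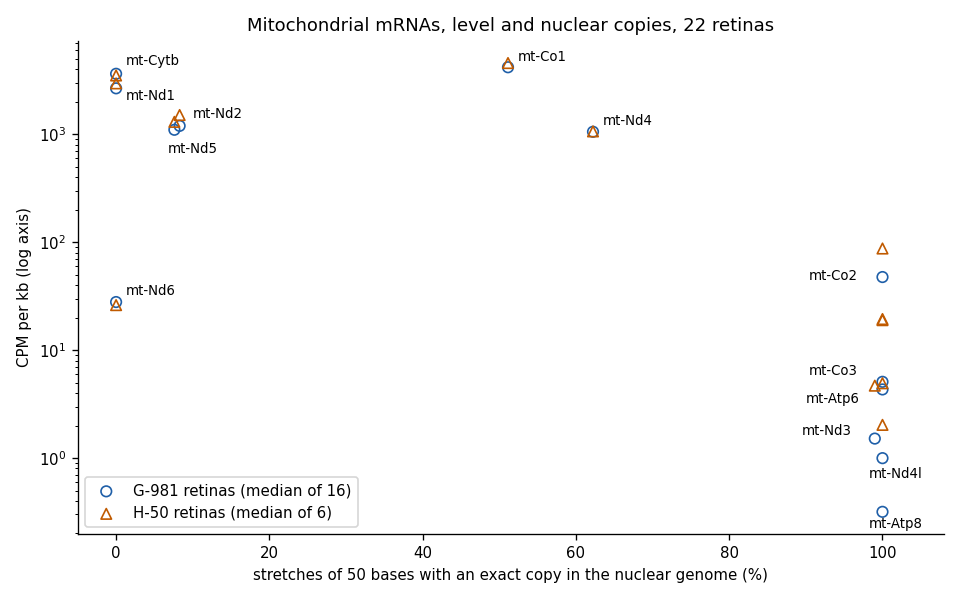
Level of each of the 13 mitochondrial mRNAs in retinas (CPM per kb, log axis) against the share of its 50-base stretches with an exact nuclear copy, in percent. Points are medians over the 16 libraries of 3 experiments (circles, series G-981) and the 6 of the UNC1999 experiment (triangles, series H-50); the genes that are 99.0% copied or more lie below 100 CPM per kb, and mt-Atp8 is 6.396 times higher in the triangles.

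The copied genes also differed most between the sets of libraries. Median CPM in the 6 libraries of the UNC1999 experiment was 6.396 times that in the other 16 retina libraries for mt-Atp8, 4.95 times for mt-Nd4l, 4.39 times for mt-Atp6, 3.82 times for mt-Co3, 3.09 times for mt-Nd3 and 1.84 times for mt-Co2. For the 7 other mitochondrial mRNAs it was 0.94 to 1.26 times. How the submitters treated reads with more than 1 place in the genome was not stated, so its part in these levels was not tested. Below, the copied genes are kept among the members and in the medians, ranges and shares given for mitochondrial mRNAs. The 5 genes with under 10% of copied stretches are mt-Nd1, mt-Nd2, mt-Nd5, mt-Nd6 and mt-Cytb. Values of the others are uncertain, as the treatment of such reads was not stated. Some nuclear members also have copies elsewhere and are uncertain for the same reason, among them Atp5g2 (100% of its stretches), Atp5l (89.4%), Cox5b (62.7%), Cox7a2l (54.3%), Ndufs5 (49.8%), Ndufs3 (43.0%) and Ndufb4 (41.3%).

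Promoters were read for the nuclear members because the factors that are known to drive this gene set, NRF1, GABP of the ETS family and YY1, have well-defined sites. RefSeq promoter sequences (GRCm38.p6, 250 bases before to 50 after the gene's start) were found for 66 members. The NRF1 core, a palindrome of 10 letters with 1 free position searched on both strands, was in 17 of the 66 (25.8%) and in 5.19% of 27025 promoters in all. The ETS core CCGGAAG was in 16 (24.2%, against 9.93%) and the YY1 site in 5 (7.58%, against 0.995%). The hypoxia core ACGTG was in 16, a share of 24.2% that lay beside 21.8% over all promoters. These are matches of letters and not shown sites of binding. The 3 promoters below are printed because each holds an NRF1 core and, for Uqcrc1 and Atp5k, because these genes moved in opposite directions under DZNep. Capitals mark the NRF1 cores and, in Cox6a1 and Atp5k, the ETS core as read from the other strand.
Uqcrc1 promoter, chr9:108936398-108936697, plus strand: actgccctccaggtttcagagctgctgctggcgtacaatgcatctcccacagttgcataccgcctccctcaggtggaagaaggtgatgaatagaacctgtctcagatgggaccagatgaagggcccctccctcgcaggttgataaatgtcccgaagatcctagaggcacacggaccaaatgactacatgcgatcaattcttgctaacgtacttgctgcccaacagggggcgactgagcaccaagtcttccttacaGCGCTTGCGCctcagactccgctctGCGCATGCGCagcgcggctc
Atp5k promoter, chr5:108434350-108434649, minus strand: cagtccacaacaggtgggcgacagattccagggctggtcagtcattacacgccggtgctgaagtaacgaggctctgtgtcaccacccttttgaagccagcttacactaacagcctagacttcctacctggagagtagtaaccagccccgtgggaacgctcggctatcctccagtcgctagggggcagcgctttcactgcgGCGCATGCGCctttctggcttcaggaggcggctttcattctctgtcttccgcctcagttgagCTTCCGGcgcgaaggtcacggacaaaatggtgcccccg
Cox6a1 promoter, chr5:115348909-115349208, minus strand: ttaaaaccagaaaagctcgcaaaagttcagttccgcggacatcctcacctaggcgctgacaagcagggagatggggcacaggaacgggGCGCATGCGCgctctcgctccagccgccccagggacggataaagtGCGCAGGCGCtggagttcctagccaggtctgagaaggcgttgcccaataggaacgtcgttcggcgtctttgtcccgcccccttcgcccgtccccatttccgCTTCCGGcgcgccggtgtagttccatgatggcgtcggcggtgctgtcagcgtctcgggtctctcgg

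In control retinas the nuclear subunits were abundant and even. Per kb of gene model the highest were Cox4i1 (366 CPM per kb), the ubiquitous form of the regulatory subunit 4 of cytochrome c oxidase, Cox8a (309), Ndufa4 (300), a small subunit first assigned to complex I and now placed with complex IV but grouped here with complex I by its name, and Atp5b (280) and Atp5a1 (232), the beta and alpha subunits of the catalytic head of ATP synthase. Uqcrc1, a core subunit of complex III, stood at 132 and Sdha, the flavoprotein of complex II, at 99.9. The lowest were tissue-restricted isoforms: Cox8b at 3.98, Ndufa4l2 at 3.19 and the muscle isoform Cox6a2 at 0.64. The germline isoforms Cox7b2 and Cox8c stood at 0.06 and at 0 counts in every library, where 3 counts would have been 0.0825 to 0.412 CPM.

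Nuclear subunits varied less than most genes, and mitochondrial mRNAs divided by their nuclear copies. Over the 22 retina libraries the median SD of log2 CPM was 0.177 for nuclear subunits. It was 0.270 for all 17274 genes tested and 0.207 for the 11569 genes within the middle range of the subunits' levels. For mitochondrial mRNAs it was 0.303, with 0.261 for the 5 under 10% copied and 0.893 for those over 50% copied. Nuclear subunits took 0.771% to 1.08% of all counts in retinas, and the 2 Romidepsin-experiment libraries control 3 (0.978%) and treated 2 (1.08%) stood above the others of their groups. Mitochondrial mRNAs took 1.45% to 2.01%.

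Sorted rods differed from retinas in the balance of the genomes. Their nuclear share was 0.634% to 0.959%, within or below that of retinas, but mitochondrial mRNAs took only 0.0957% to 0.300%. Per 100 counts of its neighbour mt-Nd5, read from the opposite strand, mt-Nd6 had 34.6 to 44.6 counts in rods and 0.452 to 1.196 in retinas. The Methods of the study give another library kit for the sorted rods, so kit and cell type cannot be told apart, and no test was made between them. Rod markers were present in the sorted cells, with 25 genes summing to 80299 to 114613 CPM in control rods. The summed level of 21 microglia and macrophage markers was 78.6 to 101 CPM in control rods against 360 to 1606 in control retinas. Cone markers were not lower in this way. Their sum in control rods, given below, lay above that in the control retinas of the DZNep experiment.

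**Figure D2:**
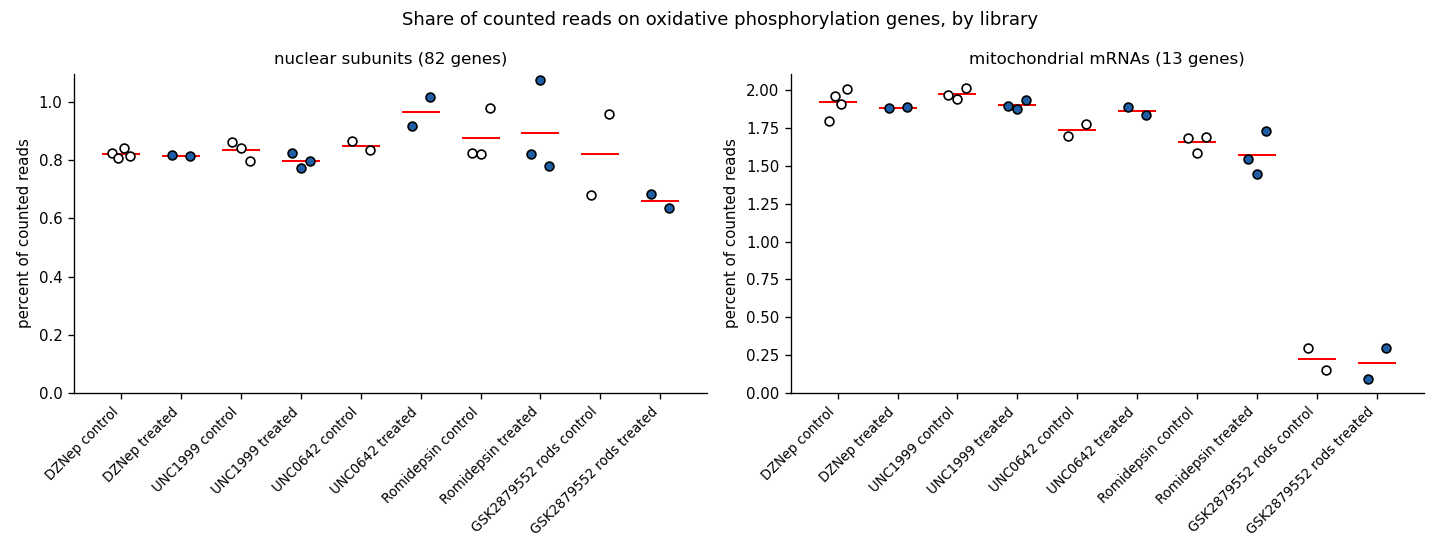
Share of all counted reads on the 82 nuclear subunits (left) and the 13 mitochondrial mRNAs (right) in each library, in percent; open points are controls, filled points treated libraries and red lines group means. The 2 UNC0642-treated retinas (0.917% and 1.02%) lie above their controls on the left, and the 4 rod libraries lie at 0.300% or below on the right.

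DZNep was the only treatment under which members passed edgeR's quasi-likelihood test. With p-values adjusted over all genes by Benjamini-Hochberg, 10 of 94 members tested rose, where 12.9% of all 16477 genes rose, and 2 fell, where 9.72% fell. The 10 that rose were 7 of 37 complex I genes, 2 of 8 of complex III and 1 of 15 of complex V. The 2 that fell were 1 of 15 of complex IV and 1 of 15 of complex V. None of the 4 complex II genes passed, and none of the 11 mitochondrial mRNAs tested did. The members' share of calls in each direction was thus near or below that of all genes, and their median log2 fold change was 0.05.

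Ndufa4l2 changed most. This paralog of Ndufa4 is known as a target of hypoxia-inducible factor that lowers complex I activity and, in brain and retina, marks pericytes. Its level was 4.01, 3.50, 3.28 and 2.48 CPM in the controls and 9.13 and 9.53 CPM in the treated retinas, a log2 fold change of 1.49 (SE 0.17, adjusted p = 0.00108). Both treated libraries lay above all 4 controls, and it was the only member that passed with a log2 fold change beyond 1, as 1.71% of all genes did. Lists of hypoxia targets and of pericyte genes, drawn up after the values were seen, moved unevenly beside it, where 12.9% of all genes rose and 9.72% fell. Of 15 hypoxia targets 5 rose and none fell, led by the hexokinase Hk2 (1.16, adjusted p = 0.000519). Hk2 stood higher in both sorted control rod libraries, of another kit by the Methods, than in every control retina of this experiment. The paper reports Hk2 as raised by GSK2879552 in sorted rods and after DZNep, Romidepsin and UNC1999. The part of rods in its change was not tested. Of 14 pericyte and vessel wall genes 2 rose and 2 fell. The summed level of that vessel list was 567 to 768 CPM in controls and 960 to 970 CPM in treated retinas, of which Vtn, also a rod gene, made up 313 to 486 and 699 to 712 CPM. Without treated library 1 or 2 the count of hypoxia targets was 2. Their part in the change of Ndufa4l2 was not tested.

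Ndufa4 had 149, 147, 152 and 141 CPM in controls and 195 and 180 CPM after DZNep (0.35, SE 0.05, adjusted p = 0.00193), and the groups did not overlap. Ndufa10, an accessory subunit of complex I, rose by 0.27 (SE 0.05, adjusted p = 0.00725), from 108.8, 104.2, 107.6 and 99.0 CPM to 130 and 123 CPM. Ndufb11, Ndufb4 and Ndufv1, the last of which binds NADH, rose by 0.18 to 0.21.

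Beyond complex I, Uqcrc1 had 215, 210, 225 and 205 CPM in controls and 248 and 249 CPM in treated retinas (0.22, SE 0.05, adjusted p = 0.0141). Uqcrh, the hinge protein of complex III, rose by 0.18, and Atp5b, the catalytic beta subunit of ATP synthase, rose by 0.19 (SE 0.06, adjusted p = 0.0407), with both treated libraries above all controls. ATP synthase held a change in the other direction too: Atp5k, the small subunit e of its membrane part, fell from 33.2, 32.4, 34.9 and 34.7 CPM to 30.5 and 27.0 CPM (-0.23, SE 0.07, adjusted p = 0.0448). In complex IV Cox4i2, the oxygen-responsive form of subunit 4, fell from 36.1, 34.3, 39.6 and 33.6 CPM to 29.7 and 26.8 CPM (-0.34, SE 0.08, adjusted p = 0.0195), again without overlap, while its ubiquitous partner Cox4i1 differed by 0.07 (adjusted p = 0.405).

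**Figure D3:**
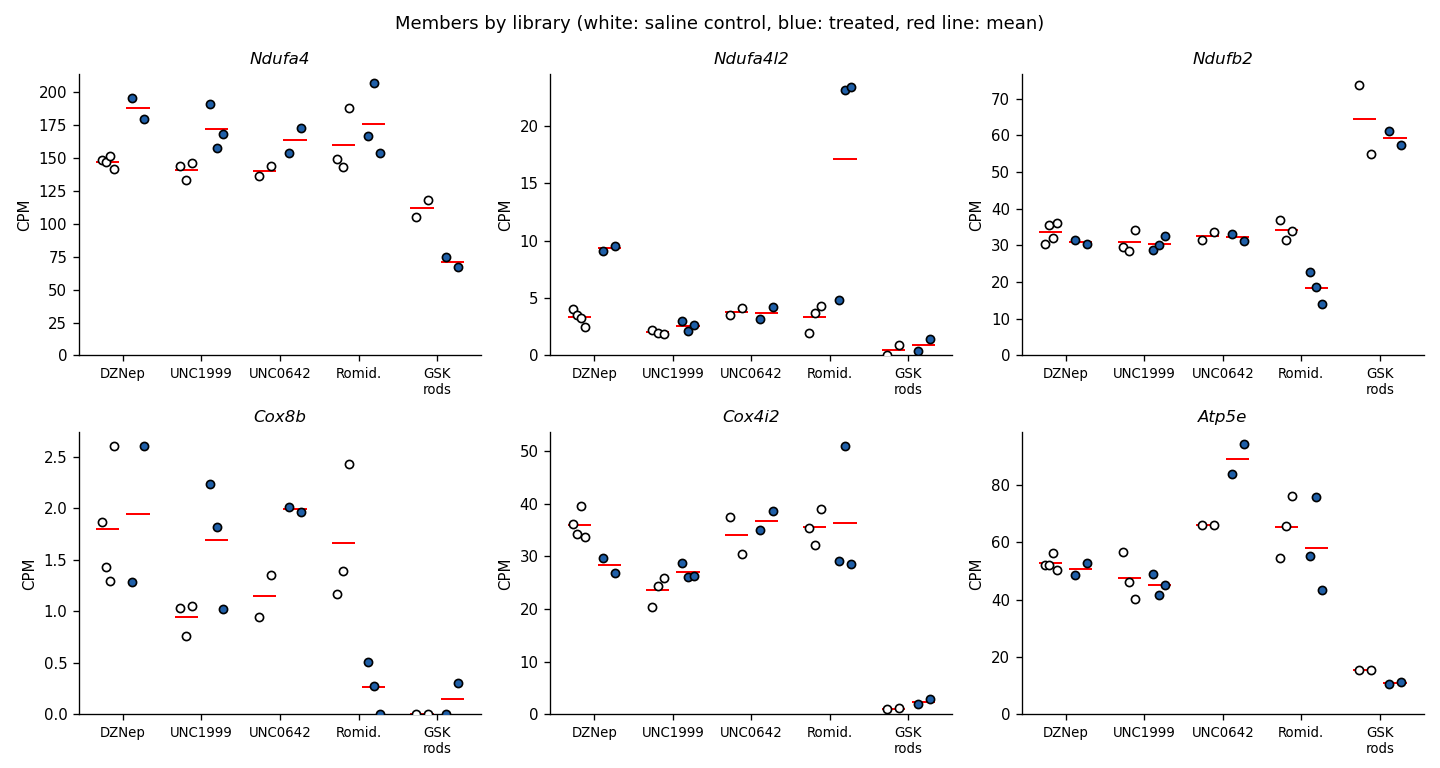
CPM of selected members in each library of the 5 experiments; open points are controls and filled points treated libraries. Ndufa4l2 and Ndufa4 lie above all controls in both DZNep-treated retinas, and Ndufb2 lies below all controls in the 3 Romidepsin-treated retinas.

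No mitochondrial mRNA passed edgeR's quasi-likelihood test under DZNep. mt-Nd1 came closest, with 2344, 2692, 2429 and 2585 CPM in controls and 3041 and 2893 CPM in treated retinas (0.24, SE 0.08, adjusted p = 0.0552), the treated libraries above all controls. It passed by the likelihood ratio test, by DESeq2 (adjusted p = 0.00195), without a filter on low counts and without control library 1 (adjusted p = 0.0341), and over all alternatives its adjusted p reached 0.377. mt-Cytb differed by -0.01 (SE 0.08) and mt-Co1 by 0.13 (SE 0.08). Over the 11 tested the values ran from -0.70 for the sparse mt-Nd3 to 0.36 for mt-Atp6, with a median of 0.08, beside a median of 0.04 for nuclear subunits. The 4 complex II genes ran from 0.07 for Sdhb to 0.14 for Sdhc (adjusted p = 0.0695).

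The number of DZNep calls depended on the fit and on single libraries. With the replicate number as a block 3 members were higher and 0 lower, and in the fit of all 22 retinas 2 were higher, Ndufa4l2 but not Ndufa4 among them, and 0 lower. Without treated library 1, whose lone partner was then assumed to vary like the controls, 3 members passed as higher, Ndufa4 and Ndufa4l2 among them, and none as lower, and without treated library 2 there were 4, with Ndufa10 among them. Without control library 2, 4 or 1 there were 5, 6 and 13 higher calls, and without control 2, 3 or 4 Cox4i2 was the 1 lower call. How many of all genes passed in these fits is not given here.

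Marker genes of other cells moved in the same libraries, where 12.9% of all genes rose and 9.72% fell. All 25 rod markers rose under DZNep, with a summed level of 25473 to 41528 CPM in controls and 74616 to 77324 CPM in treated retinas, and 11 of 15 Müller glia markers fell, from 11959 to 12502 CPM to 8506 to 9362 CPM. Of 16 markers of retinal pigment epithelium 7 rose (259 to 400 CPM summed against 415 to 652 CPM). Of 18 genes of bipolar cells and inner neurons 9 fell and 1 rose (4981 to 5930 against 4690 to 4714 CPM), of 12 cone markers 3 fell and 1 rose (2777 to 3130 against 2375 to 2497 CPM), and of 21 microglia markers 4 fell (360 to 759 against 277 to 312 CPM). In whole retinas fewer cells of a type and less RNA per cell cannot be told apart. Of the 23 nuclear subunits whose level per length was higher in sorted control rods than in control retinas, 5 rose and none fell, with a median of 0.06, and of the other 56, 5 rose and 2 fell, with a median of 0.03. The former also had longer gene models, with a median of 2.178 kb against 0.934 kb, and the ratio sets libraries of different kits side by side. The part of cell numbers in the calls was not tested.

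Some regulators of mitochondrial biogenesis rose under DZNep. Of 22 tested genes of biogenesis and mitochondrial gene expression, 7 rose and 1 fell, where 12.9% and 9.72% of all genes did, and the list's median was 0.04 with 12 positive and 10 negative values, beside 0.04 for the nuclear subunits. Esrrb, an orphan nuclear receptor that is expressed in rods and drives energy genes with PGC-1 coactivators, rose from 220, 182, 217 and 122 CPM to 555 and 498 CPM, a log2 fold change of 1.51 (SE 0.19, adjusted p = 0.00134) without overlap. The coactivators themselves rose too, Ppargc1a by 0.53 (SE 0.06, adjusted p = 0.000969) and Ppargc1b by 0.55 (SE 0.09, adjusted p = 0.00395).

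The DNA-binding factors of the classic program rose by less: Nrf1 by 0.34 (adjusted p = 0.00989), Gabpb1 by 0.48 (adjusted p = 0.00357) and Gabpa by 0.26 (adjusted p = 0.0213). Lrpprc, which stabilizes mitochondrial mRNAs, rose by 0.22 (adjusted p = 0.0187). Pprc1, the third member of the PGC-1 family, fell by 0.25 (adjusted p = 0.0137). Esrra (-0.07, adjusted p = 0.427) and Tfam, which packages and transcribes mitochondrial DNA (-0.07, adjusted p = 0.529), did not pass. Without treated library 1 the count of higher genes in this list was 3, since Nrf1, Gabpa, Gabpb1 and Lrpprc no longer passed. Esrrb and Ppargc1a passed in all 15 settings run for this comparison. Ppargc1a had 134 and 131 CPM in sorted control rods, Ppargc1b 201 and 175, and Nrf1 114 and 104. Gabpa had 118 and 110 CPM there, Gabpb1 88.3 and 95.6, and Lrpprc 130 and 132. Each stood above every control retina of this experiment. Esrrb (95.5 and 128 CPM) and Tfam (24.1 and 28.2) overlapped with them, and Esrra (8.96 and 12.5) stood below. The Methods give another kit for those libraries. The part of rod numbers in these changes was not tested.

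Among other mitochondrial genes under DZNep, 6 of 24 genes of protein and metabolite transport rose, where 12.9% of all genes did, and 1 fell, led by Slc25a5, an ADP/ATP carrier (0.39, adjusted p = 0.00156), and Immt, which shapes the cristae (0.23, adjusted p = 0.00599), and without treated library 1 or control library 2 there were 1 and 3 higher calls. Of 24 genes of the TCA cycle Mdh2 (0.21) and Dld (0.19) rose and Idh3g (-0.14) fell. Ttc19 was the only one of 29 assembly factors to pass (0.26), Etfb (-0.29) and Gpd2 (-0.27) fell among 11 subunits and carriers outside the name rule, and Mrps5 (-0.22) fell among 26 mitochondrial ribosomal proteins.

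**Figure D4:**
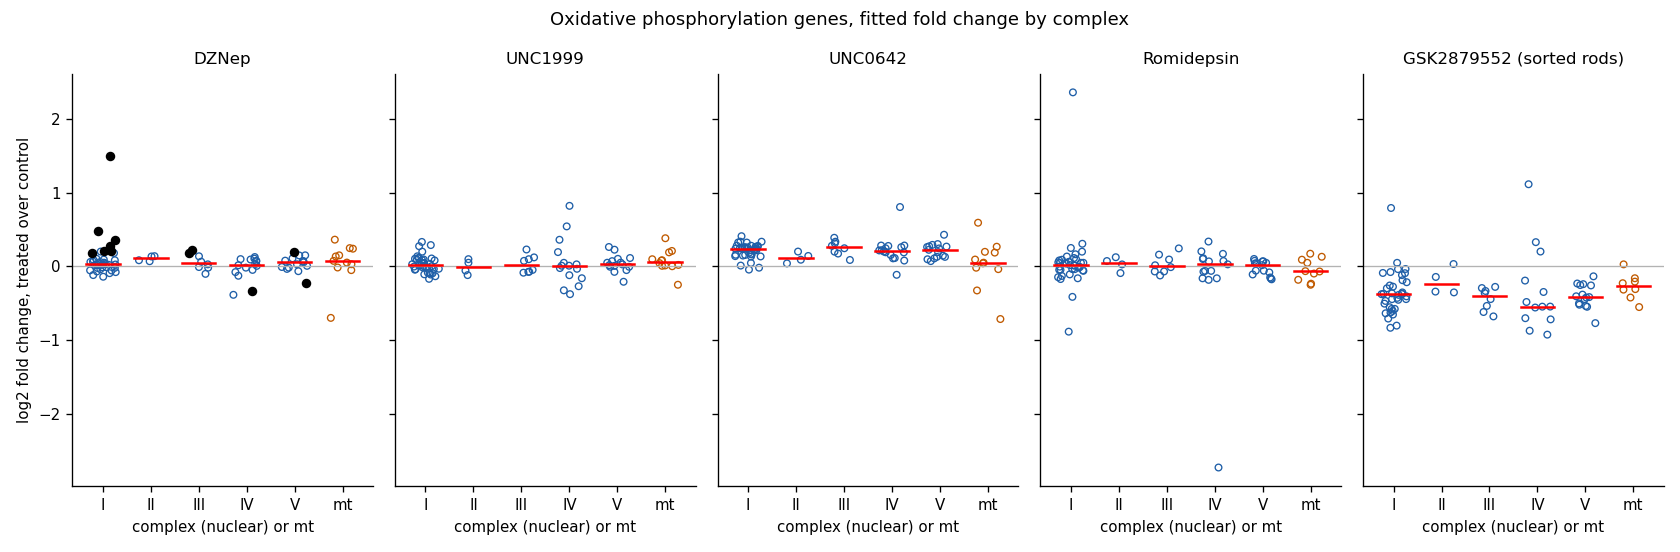
Log2 fold change, treated over control, of each tested member by complex and treatment, with a red bar at the median, black points for members past an adjusted p of 0.05 and orange for mitochondrial mRNAs. Black points occur under DZNep alone, and the UNC0642 values lie mostly above 0 (nuclear median 0.22) while the GSK2879552 values lie mostly below (nuclear median -0.38).

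UNC1999, which the study calls a more specific EZH2 inhibitor than DZNep, gave no call among 95 members tested by edgeR's quasi-likelihood test. Of all 15775 genes 0.501% rose and 0.101% fell. At an unadjusted p under 0.05, 10 members were higher and 2 lower (23.6% of all genes were past this in either direction), and the likelihood ratio test and DESeq2 each called 3 higher, Cox7a2l and Ndufa4 among them. The medians were 0.02 for nuclear subunits and 0.06 for mitochondrial mRNAs. The latter was 0.01 for the 5 under 10% copied and 0.10 for those over 50% copied.

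Cox7a2l, with 54.3% of its stretches copied elsewhere, had 94.7, 97.7 and 105 CPM in controls and 139, 118 and 125 CPM after UNC1999, with no overlap (0.36, SE 0.08, adjusted p = 0.0585). Ndufa4 had 144, 133 and 146 CPM against 191, 158 and 168 CPM (0.29, SE 0.08, adjusted p = 0.0909). Ndufa4 was thus higher without overlap under DZNep and UNC1999, each against its own controls, but passed the test only under DZNep. Its groups did not overlap under UNC0642 either (136 and 144 against 154 and 173 CPM). Of all genes, 24.4% under DZNep, 13.9% under UNC1999 and 26.9% under UNC0642 were higher without overlap.

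Smaller subunits took other directions under UNC1999. Cox8a had 162, 142 and 131 CPM in controls and 134, 97.1 and 105 CPM in treated retinas, which overlapped (-0.37, SE 0.13, adjusted p = 0.132), and Atp5d, the delta subunit of the ATP synthase stalk, differed by -0.21 (adjusted p = 0.233). Uqcrh and Atp5l differed by 0.23 each (adjusted p = 0.0981 and 0.0845), and Atp5g1, which encodes the rotor ring, by 0.26 (adjusted p = 0.164). Cox8b (0.82, adjusted p = 0.19) and Cox6b2 (0.54, adjusted p = 0.21) rested on 20 to 40 and 53 to 113 counts a library. Ndufa4l2 stood at 0.33 (adjusted p = 0.366) and Ndufa12 at -0.17 (adjusted p = 0.288). Complex II ran from -0.12 for Sdhb to 0.10 for Sdhc.

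Of the mitochondrial mRNAs mt-Co2, which is copied, had the smallest p under UNC1999 (0.19, SE 0.06, adjusted p = 0.107), and the others ran from -0.25 for mt-Nd6 to 0.38 for mt-Nd3, with mt-Co1 at 0.08. Regulators came nearer to the threshold than the subunits: Esrrb had 213, 163 and 285 CPM against 677, 459 and 492 CPM (1.30, SE 0.22, adjusted p = 0.0514), and Ppargc1b differed by 0.87 (adjusted p = 0.0813). Control library 3 carried weight, since without it 4 members rose and 1 fell (Cox5b). The share of all genes passing in that fit is not given here. Rod markers summed to 27034 to 49696 CPM in controls and 66152 to 89085 CPM in treated retinas, where 1 of 25 passed. Of 16 markers of retinal pigment epithelium 9 rose (317 to 351 CPM summed against 610 to 691 CPM), and 2 of 21 microglia markers fell. Of all genes 0.501% rose and 0.101% fell. The part of these markers in the values of members and regulators was not tested.

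After UNC0642 nearly all nuclear subunits were slightly higher, but none passed. Of 80 tested, 77 had a positive log2 fold change, where 49.7% of all 16321 genes did, and in 68 both treated libraries lay above both controls, where 26.9% of genes did. The median was 0.22 with a median SE of 0.09, and mitochondrial mRNAs had a median of 0.05. No gene of any kind passed edgeR's quasi-likelihood test here (0.0% called), although 2407 genes (14.7%), 39 nuclear subunits among them, had an unadjusted p under 0.05. The likelihood ratio test and DESeq2 each called 1 member, Atp5e. Subunits of complexes I (0.24), III (0.26), IV (0.21) and V (0.22) had similar medians and complex II a lower one (0.12).

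Atp5e, the epsilon subunit of the ATP synthase stalk, had 66.1 and 66.1 CPM in controls and 83.8 and 94.3 CPM in treated retinas (0.43, SE 0.08, adjusted p = 0.299). Uqcrq of complex III had 95.6 and 96.2 CPM against 114 and 137 CPM (0.39, SE 0.10), and Ndufa3 of complex I had 46.4 and 43.2 CPM against 54.4 and 64.8 CPM (0.41, SE 0.11). In each of these the treated libraries lay above the controls and treated library 2 was the higher. Without treated library 2 the nuclear median was 0.13.

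Values of 0.28 to 0.33 were given by Ndufa5, Uqcrh and Cox7c, while the large subunits Atp5a1 (0.07), Sdha (0.04) and Uqcrc2 (0.09) stood close to 0. Sdhb, the iron-sulfur subunit, stood at 0.20. At the edges, Cox8b had 0.80 on 23 to 36 counts a library, Cox6a2 -0.11 on 4 to 16 counts and Ndufa4l2 -0.04. Among mitochondrial mRNAs mt-Nd6 had 14.1 and 15.0 CPM against 19.9 and 23.97 CPM (0.59, SE 0.13, adjusted p = 0.299), mt-Cytb differed by 0.20 and mt-Co1 by 0.09.

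Length went with this difference. Over all protein-coding genes under UNC0642 the median was 0.22 for the 647 with gene models under 1 kb, of which 76.4% were positive, 0.11 for those of 1 to 2 kb and -0.03 for longer ones. Nuclear subunits in the same classes had medians of 0.24, 0.26 and 0.15, so short members were level with other short genes and longer ones lay above other long genes. Mitochondrial ribosomal proteins, another set of short genes, were positive in 25 of 26 cases with a median of 0.21. Microglia markers moved in the same libraries, from 1089 to 1606 CPM summed over 21 genes to 639 to 1052 CPM, and their part in the result was not tested. The regulators did not move the same way: Esrrb stood at 0.57 and Nrf1 at 0.20, but Ppargc1b at -0.28, with adjusted p of 0.304 to 0.342.

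**Figure D5:**
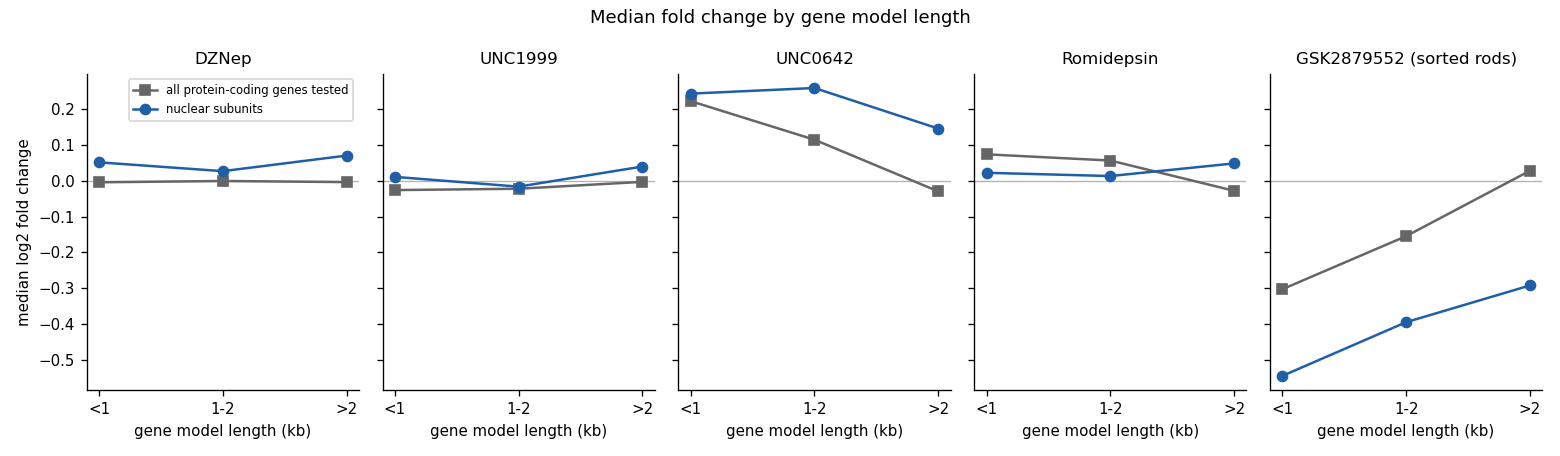
Median log2 fold change, treated over control, of all protein-coding genes tested (grey squares) and of nuclear subunits (blue circles) in 3 classes of gene model length, under 1 kb, 1 to 2 kb and over 2 kb, for the 5 comparisons. Under UNC0642 all genes go from 0.22 in the shortest class to -0.03 in the longest, and under GSK2879552 from -0.30 to 0.03.

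Under Romidepsin the smallest p were those of a few low or small subunits, and these did not pass. None of 93 members passed edgeR's quasi-likelihood test, where 0.573% of 16049 genes rose and 0.174% fell, and 3 members were higher and 2 lower at an unadjusted p under 0.05 (19.4% of genes in either direction). The medians were 0.02 for nuclear subunits and -0.07 for mitochondrial mRNAs. The likelihood ratio test and DESeq2 each called 1 member higher and 2 lower, and these were the 3 genes with the smallest p.

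Ndufa4l2 had 1.99, 3.69 and 4.27 CPM in controls and 4.86, 23.1 and 23.4 CPM after Romidepsin (2.35, SE 0.55, adjusted p = 0.0768). The groups did not overlap, but treated library 1 lay near the controls, and without it Ndufa4l2 and Ndufb2 passed. Ndufb2, an accessory subunit of the membrane arm of complex I, had 37.0, 31.4 and 33.8 CPM against 22.9, 18.5 and 14.1 CPM (-0.88, SE 0.18, adjusted p = 0.0634), every treated library below every control. Cox8b, the muscle and brown fat form of subunit 8, had 17, 26 and 46 counts in controls (1.16, 1.39 and 2.43 CPM) and 9, 5 and 0 counts in treated retinas (0.51, 0.28 and 0.00 CPM), a log2 fold change of -2.72 (SE 0.69, adjusted p = 0.086). Striated muscle markers, 21 genes, summed to 67.7 to 95.7 CPM in controls and 79.5 to 120 CPM in treated retinas, and none of the 9 tested passed.

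Most other members scattered around 0 with wide errors under Romidepsin (median SE 0.17, against 0.06 under DZNep). Ndufc1, a small complex I subunit, had 41.0, 36.1 and 42.2 CPM against 24.5, 39.7 and 25.6 CPM, treated library 2 being the one in the control range, and without that library it was the only member that passed. Uqcrc1 differed by 0.24, Cox6b2 by 0.34, Cox8a by -0.18, Atp5g1 by -0.16 and Atp5e by -0.17.

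The 2 libraries with the high nuclear share, control 3 and treated 2, pulled the median in opposite directions. It ranged from -0.15 to 0.12 as single libraries were left out. In complex II the values ran from -0.09 for Sdha to 0.12 for Sdhb, and mitochondrial mRNAs ran from -0.25 for mt-Nd5 to 0.17 for mt-Atp6, with mt-Nd2 at -0.23 and mt-Co1 at -0.06. Esrrb had 184, 121 and 178 CPM against 280, 289 and 368 CPM (0.96, SE 0.19, adjusted p = 0.0571), and Nrf1 differed by 0.44 (adjusted p = 0.112). Of the 15 hypoxia targets only Hk2 rose (1.10, adjusted p = 0.0277), where 0.573% of all genes did. Hk2 stood higher in both sorted control rod libraries, of another kit, than in every control retina of this experiment too. In the other direction 2 of 21 microglia markers and 1 of 18 genes of bipolar cells and inner neurons fell, where 0.174% of all genes did. Without control 3 and treated 2 together, a choice made after the values were seen, the nuclear median was -0.05 and no member passed.

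In sorted rods GSK2879552 went with lower values across the nuclear subunits, and none passed. Of 77 tested, 71 were negative, where 48.8% of all 14478 genes were positive, and in 33 both treated libraries lay below both controls, where 17.3% of genes did. The median was -0.38 with a median SE of 0.28, and that of mitochondrial mRNAs was -0.27. No gene passed edgeR's quasi-likelihood test (0.0% called), 711 genes (4.91%) and 6 members had an unadjusted p under 0.05, and the likelihood ratio test and DESeq2 called no member.

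Ndufa4 had 105 and 118 CPM in control rods and 75.1 and 67.2 CPM in treated rods (-0.65, SE 0.21, adjusted p = 0.94). Cox7b, a small subunit of complex IV, had 27.0 and 27.2 CPM against 12.6 and 17.2 CPM (-0.87, SE 0.29, adjusted p = 0.975), and Cox4i1 had 84.9 and 141 CPM against 73.0 and 64.9 CPM (-0.72, SE 0.27). The groups did not overlap for these 3 genes, although control library 2 was often far above control library 1. Cox8a (-0.92), Ndufs6 (-0.83), Atp5k (-0.77), Uqcr11 (-0.68) and Uqcrb (-0.62) were also among the lowest, and Sdha (0.03), Atp5h (-0.13) and Uqcrc1 (-0.28) among the least changed. Cox4i2, at 7 and 21 counts in controls and 38 and 28 in treated rods, was the highest of complex IV (1.11, SE 0.71), and Ndufa4l2 had 0 and 15 counts against 8 and 14.

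Both library choice and length went with the rod values. Without control library 2 the nuclear median was -0.11. Without treated library 2, which leaves 1 treated library, the mitochondrial median was -1.24. The library kept, treated 1, had the lowest mitochondrial share of the 4, 0.0957% against 0.300% in treated 2. Over all protein-coding genes the median was -0.30 under 1 kb, -0.15 at 1 to 2 kb and 0.03 above, and for nuclear subunits it was -0.54, -0.39 and -0.29. Mitochondrial ribosomal proteins had a median of -0.27, and Esrrb, higher in both treated libraries, had 0.45 (adjusted p = 0.987). Cone markers, 12 genes, summed to 3411 to 5036 CPM in control rods and 1989 to 2586 CPM in treated rods, with 11 negative and none passing, while rod markers summed to 80299 to 114613 and 94457 to 107496 CPM, and the part of either in the subunit values was not tested. mt-Nd6 ran at -0.55 (SE 0.47), mt-Cytb at -0.21 and mt-Co1 at 0.03.

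Responses to the 4 retinal inhibitors were set against each other in 1 fit of the 22 retina libraries, as 6 differences of log2 fold changes that share experiments in part. By edgeR's quasi-likelihood test members differed in only 1 of them, UNC1999 less Romidepsin, where 3 passed and 5.11% of 17274 genes did, and 5 members and 21.8% of genes had an unadjusted p under 0.05. Ndufb2 stood at -0.01 under UNC1999 and -0.88 under Romidepsin, a difference of 0.87 (SE 0.18, adjusted p = 0.0102). Cox8b stood at 0.82 and -2.72, a difference of 3.54 (SE 0.75, adjusted p = 0.0119). By the likelihood ratio test and DESeq2, 2 members also differed in DZNep less Romidepsin and 3 in UNC0642 less Romidepsin. The shares of all genes that differed by those tests are not given here, so these counts have no background beside them. The third member in UNC1999 less Romidepsin was Cox4nb, a member by name only whose product belongs to an endoplasmic reticulum membrane complex (-0.38, SE 0.10, adjusted p = 0.0311), and it lost its call in 12 of 22 fits that each left out 1 library.

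DZNep and UNC1999 differed at no member by edgeR's quasi-likelihood test (0.00579% of genes called), 1 member had an unadjusted p under 0.05, where 9.45% of genes did, and the smallest p was that of Cox6b2 (-0.92, SE 0.35, adjusted p = 0.411), before Cox4i2 (-0.53, adjusted p = 0.528) and Cox8a (0.39, adjusted p = 0.532). Against Romidepsin the leading genes were the same in both other pairs: Ndufb2 and Cox8b stood at 0.77 and 2.76 for DZNep (adjusted p = 0.0714 and 0.104) and at 0.86 and 3.52 for UNC0642 (adjusted p = 0.0882 for each). In the last of these Ndufa4l2 differed by -2.41 (adjusted p = 0.128). Few genes of any kind differed in these pairs, 0.289% for DZNep less Romidepsin and 0.0174% for UNC0642 less Romidepsin, and 4 and 11 members had an unadjusted p under 0.05, where 13.8% and 12.6% of genes did. For DZNep less UNC0642 the smallest p included those of Ndufa4l2 (1.54, SE 0.65, adjusted p = 0.32) and Cox7c (-0.40), and for UNC1999 less UNC0642 those of Cox8a (-0.59, SE 0.20, adjusted p = 0.279), Atp5d (-0.48) and Ndufa9 (-0.35). In these pairs 0.0232% and 0.0116% of genes passed, and 3 and 5 members had an unadjusted p under 0.05, where 13.1% and 12.0% of genes did. Without Romidepsin treated library 2, 12 members passed in UNC0642 less Romidepsin and 5 in UNC1999 less Romidepsin. Without Romidepsin treated library 1, 3 passed in each of the contrasts with DZNep and UNC0642. The shares of all genes passing in these fits are not given here, so these counts have no background beside them.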

How the data were processed

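The deposited values are read counts per gene and library; per the labels, the authors used bcl2fastq, HISAT2 2.2.1 and HTSeq 0.11.2 on NCBIM37 (mm9). Strand and multiple-hit settings are not given in the sources used here. The labels name a stranded poly(A) kit for every library, whereas the study's Methods give SMART-Seq for sorted rods. All 26 libraries were used and 0 columns were left unused. No pair of replicates looked like the same library (23 pairs compared).

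Identifiers were paired with symbols by GENCODE M1 (37205 of 37991). Each experiment was fitted separately with edgeR 4.0.16 (R 4.3.3, limma 3.58.1): low counts were filtered by filterByExpr, libraries were scaled by TMM, and the quasi-likelihood test was adjusted by Benjamini-Hochberg over all genes, with calls at an adjusted p under 0.05. CPM are scaled by TMM within an experiment. Differences between inhibitors came from 1 fit of the 22 retinas. DESeq2 1.42.0, the likelihood ratio test, other scaling and filters, a replicate block and leaving out libraries were alternatives. The scripts were tested on simulated data. Totals set the precision: 3 counts are 0.0825 to 0.412 CPM, and this covers counting error only.

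Members and lists were chosen with earlier results of these data known. The genes named were, per comparison and complex, those with the smallest p and the highest and lowest fold change, the mitochondrial mRNAs, isoform paralogs, the Sdh genes, 7 regulators and the most abundant subunit of each complex, and for differences between inhibitors the 3 smallest p. Other members are named where they passed the test or a count of 5 or fewer called for it, chosen after their values were seen. Some genes that this rule names are not reported here. The lists of pericyte genes and hypoxia targets were added after values were seen.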

Additional observations from a re-analysis of the deposited data

Results flagged for a closer look

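The differences in response between UNC1999 and Romidepsin at Ndufb2 (0.87), Cox8b (3.54) and Cox4nb (-0.38), all log2, are listed because the test of the difference itself passed. Of all genes 5.11% passed it. Ndufb2 and Cox8b passed in every fit that left out 1 library, whereas Cox4nb lost its call in 12 of 22 of them (adjusted p up to 0.104). Over the other alternatives, which include the likelihood ratio test and DESeq2, adjusted p reached 0.0335 for Ndufb2 but 0.0809 for Cox8b. Cox8b rests on 46 counts or fewer a library in these 2 experiments.

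Nrf1 in control library 1 of the DZNep experiment (36.1 CPM) stood apart from the other 3 controls (33.2, 33.4 and 33.6 CPM) by a gap of 0.84 of the group's range. It was the only outlier among 37 values examined, where chance gives about 1 in 20.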

How the results depend on the processing

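Depth and small groups limit these results: 2 libraries a group under UNC0642 and GSK2879552, few counts for tissue isoforms, and copied mitochondrial genes. Among the named genes, the alternatives other than leaving out libraries gave 900 values of the same direction and call, 64 newly past the threshold, 35 no longer past it and 3 reversed: mt-Co1 under GSK2879552 (-0.14) and mt-Cytb under DZNep (0.034) with a replicate block, and Cox8b under DZNep (-0.011) with at least 10 counts in every library. The smaller prior count changed none of 113 levels. The cause of the changes was not tested.

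Members higher under DZNep numbered 3 with the replicate block, 2 in the fit of all 22 retinas and 1 past a log2 fold change of 1. Members lower under DZNep numbered 1 with the likelihood ratio test, 1 with DESeq2 and 1 without a filter, and 0 with the block, in the 22-retina fit and past the fold. Under UNC1999, 3 were higher by the likelihood ratio test, 3 by DESeq2, 1 without a filter and 1 in the 22-retina fit. Under UNC0642 the counts higher were 1 by the likelihood ratio test, 1 by DESeq2, 6 without a filter and 3 with the block. Under Romidepsin they were 1 by each of these tests, 1 without a filter, 1 with the block and 4 in the 22-retina fit, with 2, 2 and 2 lower by the likelihood ratio test, DESeq2 and no filter and 3 in the 22-retina fit. DZNep less Romidepsin gave 2 by the likelihood ratio test and 2 by DESeq2, and UNC0642 less Romidepsin 3, 3 and, without a filter, 1. For these differences the shares of all genes under the alternatives are not given here.

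Whether the replicate numbers pair the samples could not be settled in groups this small. Correlations of same-numbered deviations from the group mean ran from -0.279 to 0.230. Both pairs under UNC0642 gave 0.213, which is a single value, since deviations within a group of 2 mirror each other. Over all genes, calls higher and lower moved from 2133 and 1601 under DZNep to 919 and 496 with the block and 963 and 370 in the 22-retina fit. Under UNC1999 they moved from 79 and 16 to 839 and 802 (likelihood ratio test), 778 and 665 (DESeq2), 533 and 491 (no filter), 20 and 10 (block) and 717 and 728 (22 retinas). Under UNC0642, from none, they reached 98 and 47, 95 and 49, 443 and 609, 244 and 345, and 5 and 0 in that order. Under Romidepsin they moved from 92 and 28 to 657 and 528, 597 and 477 and 410 and 260 by the first 3, and 1540 and 1447 in the 22-retina fit. Under GSK2879552 they reached, from none, 46 and 25, 27 and 16, 143 and 43, and 2 and 1 with the block.

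As single libraries were left out, members higher ran up to 13 under DZNep. They ran from 0 to 4 under UNC1999 and 0 to 1 under Romidepsin, with 0 to 1 lower in each. Such fits under GSK2879552 leave 1 library in a group, and their counts are not given. Shares of all genes passing in the fits without 1 library are not given here either. The nuclear median ran from 0.13 to 0.31 under UNC0642 and -0.63 to -0.11 under GSK2879552, and the mitochondrial median from 0.044 to 0.14 and -1.24 to 0.33. Differing members ran from 0 to 3 for DZNep less Romidepsin, 0 to 12 for UNC0642 less Romidepsin and 2 to 5 for UNC1999 less Romidepsin. Named genes changed sign in 26 such fits. Under Romidepsin the ranges were -0.41 to 0.0049 for Atp5e, -0.015 to 0.19 for Atp5g3, -0.059 to 0.28 for Sdhb, -0.36 to 0.051 for Uqcr11, -0.19 to 0.054 for mt-Co1 and -0.36 to 0.0024 for mt-Nd5. Under UNC0642 they were -1.40 to 0.65 for Cox6a2, -0.25 to 0.15 for Ndufa4l2 and -0.018 to 0.18 for Uqcrc2, and under DZNep -0.49 to 0.52 for Cox8b and -0.046 to 0.0080 for mt-Cytb. Under GSK2879552 they were -0.27 to 0.016 for Atp5h, -0.24 to 6.45 for Ndufa4l2, -0.21 to 0.33 for Sdha, -0.58 to 0.037 for Uqcrc1, -1.18 to 0.72 for mt-Co1, -1.06 to 0.34 for mt-Cytb and -1.36 to 0.14 for mt-Nd6.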
